A study of Mus musculus with 4 samples.

Results

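The genes described here are 10 named members of the bone morphogenetic protein (BMP) pathway and its Id targets in the pubertal mouse mammary gland: the ligands Bmp2, Bmp4, Bmp6 and Bmp7, the receptor Bmpr1a, the inhibitory Smad6, and Id1, Id2, Id3 and Id4. They were chosen by name, with earlier results of these data known. All were looked up by Ensembl gene ID among 28399 IDs, and 9 of the 10 were measured. The ID of Bmp6 matched no row of the values used, so Bmp6 was not analysed here. RNA came from terminal end buds, the bulbous tips that lead the growing ducts at puberty, and from the ducts behind them. Both were microdissected after collagenase digestion of the inguinal glands of female C57/BL6 mice. The labels call the mice pubertal and 5 to 6 weeks old, while the protocol has them killed at 6 to 7 weeks. There were 2 arrays for each structure, each from pooled material of about 300 to 400 structures, and the submitters call the arrays technical replicates. Spreads and p-values therefore measure the arrays and not variation between mice.

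BMPs are secreted dimers of the TGF-beta superfamily. They bind pairs of type I and type II receptor kinases, which phosphorylate a set of Smad proteins that enter the nucleus with Smad4 and raise transcription of target genes. Id genes are among the best known direct targets. Id proteins have a helix-loop-helix domain but no DNA-binding region, and they tie up E proteins and so hold back differentiation programmes. In the mammary gland BMP signals take part in the formation of the embryonic bud, Id2 is needed for alveolar growth in pregnancy, and Id4 is known for its expression in basal epithelial cells.

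Upstream sequence is printed for Id4 and Id3, the Id genes that lay higher in terminal end buds, and for Id2, whose arrays overlapped between structures. RefSeq promoters (build GRCm38.p6) were matched by symbol for 7 of the 10 genes, 6 of them measured. Bmp2, Bmp7 and Id1 had no match, so no sequence could be printed for Id1. Each sequence below holds the 250 bases before the transcription start, 5′ to 3′ on the gene's strand. Capitals mark matches, on either strand, to GGCGCC or to GGAGCC, GC-rich words known from BMP-responsive Smad sites. The Id4 window is chr13:48260866-48261115 (plus strand), the Id3 window chr4:136143572-136143821 (plus strand) and the Id2 window chr12:25096093-25096342 (minus strand).
Id4: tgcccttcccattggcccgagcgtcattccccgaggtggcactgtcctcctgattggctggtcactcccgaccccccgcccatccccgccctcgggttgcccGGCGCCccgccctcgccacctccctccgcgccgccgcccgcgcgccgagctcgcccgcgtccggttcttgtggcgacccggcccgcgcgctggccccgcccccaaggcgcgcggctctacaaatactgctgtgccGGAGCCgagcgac
Id3: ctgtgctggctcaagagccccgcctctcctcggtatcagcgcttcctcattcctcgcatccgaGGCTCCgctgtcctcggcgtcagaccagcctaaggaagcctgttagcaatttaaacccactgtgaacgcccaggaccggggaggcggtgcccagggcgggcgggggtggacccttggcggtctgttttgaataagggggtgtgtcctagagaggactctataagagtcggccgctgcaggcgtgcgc
Id2: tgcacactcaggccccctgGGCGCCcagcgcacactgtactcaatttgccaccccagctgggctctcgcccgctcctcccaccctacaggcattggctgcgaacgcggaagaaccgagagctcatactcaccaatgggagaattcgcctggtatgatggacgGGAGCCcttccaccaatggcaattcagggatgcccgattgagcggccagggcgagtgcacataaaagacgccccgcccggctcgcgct

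Id4 held GGCGCC once, 148 to 143 bases before the start, and GGAGCC once, 13 to 8 bases before it. Id2 also held each word once, GGCGCC at 231 to 226 and GGAGCC at 88 to 83 bases before its start. Id3 held GGAGCC once, on the opposite strand at 187 to 182 bases, and no GGCGCC. None of the marked words overlap. Of 32851 RefSeq promoter windows of the same length, 9.59% held GGCGCC and 26.0% held GGAGCC. The palindromic Smad word GTCTAGAC was in 0.167% of those windows and in none of the 3 printed ones. Both words were thus in the windows of Id4 and of Id2, and a match in these windows shows letters and not a bound site. The shares over all windows were not matched for base composition. G and C made up 75.6% of the Id4 window and 62.8% of those of Id3 and Id2. Among the other matched genes, Bmpr1a held GGCGCC, Smad6 and Bmp4 held GGAGCC, and Bmp6 held neither.

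Values are log2 intensities from RMA, one per gene and array. Brightness depends on the probes, so each gene is compared between structures and levels of different genes are not ranked. Across the 9 genes, Id4, Id3, Bmp7 and Bmpr1a were higher on both terminal end bud arrays than on either duct array, Id1 was lower on both, and Bmp2, Bmp4, Smad6 and Id2 overlapped. Among all genes 33.8% lay higher without overlap and 19.6% lower, so 4 of 9 and 1 of 9 are not far from the background. After quantile normalization 4 lay higher and 3 lower without overlap, against 25.6% and 25.9% of all genes. After centring each array on its median 4 lay higher and 2 lower, against 26.5% and 26.0%. The median difference was 0.07 log2 units over the 9 genes and 0.11 over all genes. Terminal end bud arrays carried that median offset of 0.11, and small positive differences have to be read against it. The shift was not the same for every gene. Quantile normalization moved the difference of Bmpr1a from 0.39 to 0.19 and that of Bmp4 from -0.08 to -0.14.

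**Figure D1:**
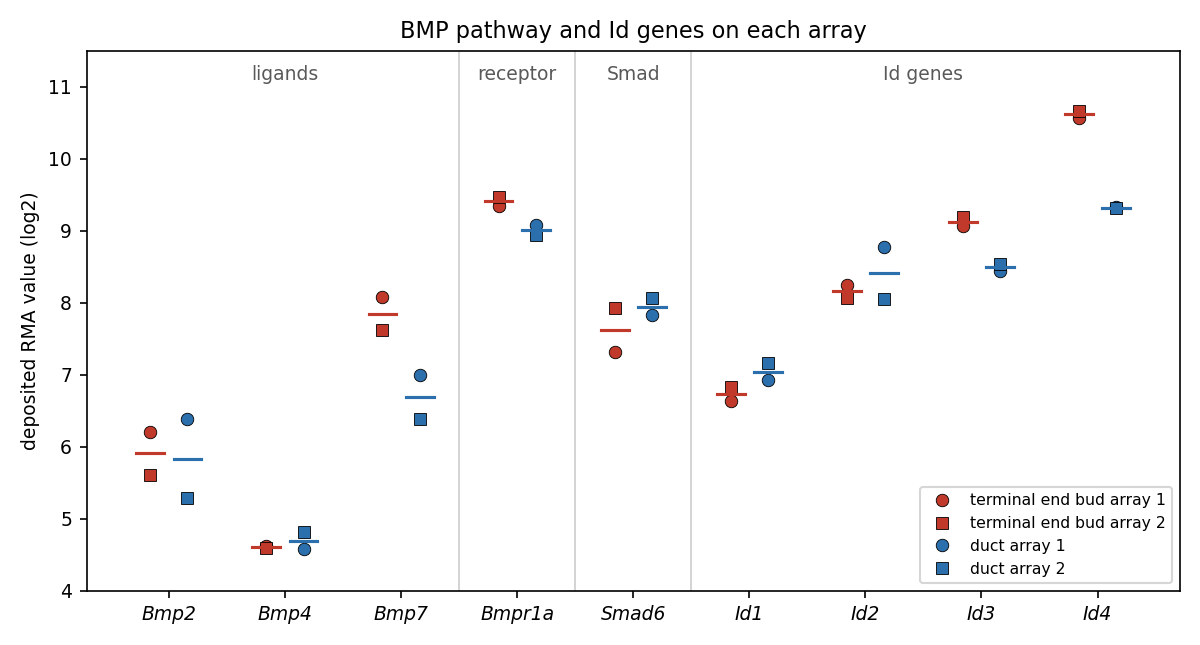
Deposited RMA value (log2, vertical axis) of each measured gene on each array. Red marks are terminal end bud arrays, blue marks duct arrays, circles replicate 1, squares replicate 2, and short lines are the means of 2 arrays. Red lies above blue without overlap for Bmp7, Bmpr1a, Id3 and Id4, and Id1 lies slightly lower in red. The nearest red and blue marks are 1.25 log2 units apart for Id4, 0.62 for Bmp7, 0.52 for Id3 and 0.26 for Bmpr1a.

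Among the ligands, Bmp7 separated the structures on the deposited values and Bmp2 and Bmp4 did not. Bmp7 (ENSMUSG00000008999), a ligand of the branch that also holds Bmp6, measured 8.08 and 7.62 in terminal end buds and 7.00 and 6.38 in ducts. Both terminal end bud values lay above both duct values, but the arrays of each structure were also 0.46 and 0.61 apart. The means were 7.85 ± 0.32 (SD, n = 2) and 6.69 ± 0.43 (SD, n = 2), a log2 difference of 1.16 (SE 0.31, 95% interval 0.35 to 1.97), or 2.23-fold. Over single pairs of arrays the difference ran from 0.62 to 1.70. Only 4.93% of all genes had a larger difference in either direction.

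Bmp2 (ENSMUSG00000027358), a ligand closely related to Bmp4, measured 6.21 and 5.60 in terminal end buds and 6.38 and 5.28 in ducts. The duct values enclosed both terminal end bud values. Its spread between arrays of one structure, a residual SD of 0.63, was larger than that of 91.9% of all genes, and its difference of 0.07 had a 95% interval from -1.12 to 1.27. This interval leaves room for a change of more than 2-fold either way.

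Bmp4 (ENSMUSG00000021835) measured 4.62 and 4.60 in terminal end buds and 4.58 and 4.81 in ducts. Its difference of -0.08 (95% interval -0.57 to 0.41) was within the spread between the duct arrays. After quantile normalization the Bmp4 arrays no longer overlapped, with a difference of -0.14, while after median centring they still did. The values lay close to the lower quartile of each array (4.48 to 4.53). No detection calls were used here, so Bmp4 may not have been above background in either structure.

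Within each array the log2 ratio of Bmp7 to Bmp2 was 1.87 and 2.02 in terminal end buds and 0.62 and 1.10 in ducts. Such a ratio is not moved by a constant offset of an array, and only its change between structures is read. That change was 1.08 log2 units with no overlap. The ratio was chosen after the values were seen and was not tested, and the 95% interval of Bmp2 (-1.12 to 1.27) holds the difference of Bmp7.

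Bmpr1a (ENSMUSG00000021796), a type I receptor kinase for Bmp2 and Bmp4, measured 9.35 and 9.47 in terminal end buds and 9.08 and 8.94 in ducts. The structures did not overlap, and the arrays of each were 0.12 and 0.14 apart. The difference was 0.39 log2 units (SE 0.18, 95% interval -0.08 to 0.87), or 1.31-fold, and 41.8% of all genes differed by more. After quantile normalization it was 0.19, still with no overlap.

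Smad6 (ENSMUSG00000036867), which blocks BMP receptors and the Smads they activate and is itself induced by BMP, measured 7.32 and 7.93 in terminal end buds and 7.83 and 8.06 in ducts. The second terminal end bud array lay between the duct arrays, so the structures overlapped. The difference was -0.32 log2 units (95% interval -1.05 to 0.40), and it was -0.02 when terminal end bud replicate 1 was left out and -0.63 when replicate 2 was. With 2 arrays per structure, these shifts restate the gap of 0.61 between the terminal end bud arrays and single out neither array. The Smad6 difference was -0.44 without duct replicate 1 and -0.21 without duct replicate 2.

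The 4 Id genes differed in the size and sign of their differences. Id4 (ENSMUSG00000021379) measured 10.57 and 10.67 in terminal end buds and 9.33 and 9.31 in ducts. The arrays of one structure lay within 0.10 of each other and the structures more than 1.2 log2 units apart. The means were 10.62 ± 0.07 (SD, n = 2) and 9.32 ± 0.01 (SD, n = 2), a difference of 1.30 (SE 0.17, 95% interval 0.85 to 1.75), or 2.46-fold. Among all genes, 3.56% had a larger difference in either direction, and Id4 ranked at 693 among the higher ones. Its residual SD of 0.05 was larger than that of only 5.30% of genes.

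Id3 (ENSMUSG00000007872) measured 9.07 and 9.19 in terminal end buds and 8.44 and 8.54 in ducts. The means of 9.13 ± 0.08 (SD, n = 2) and 8.49 ± 0.08 (SD, n = 2) differed by 0.64 log2 units (SE 0.17, 95% interval 0.17 to 1.10), or 1.55-fold. The gap between structures was over 4 times that between arrays of one structure, though 20.7% of all genes differed by more. After quantile normalization the Id3 difference was 0.44 (95% interval -0.06 to 0.93), or 1.35-fold. After median centring it was 0.52 (95% interval 0.02 to 1.03).

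Id1 (ENSMUSG00000042745), an Id gene often used as a readout of BMP activity, had a difference of the opposite sign. It measured 6.63 and 6.82 in terminal end buds and 6.92 and 7.16 in ducts. No terminal end bud value reached a duct value, but the nearest pair was 0.10 apart and the arrays of each structure were 0.19 and 0.24 apart. The difference was -0.31 log2 units (SE 0.19, 95% interval -0.83 to 0.20), and 51.5% of all genes differed by more. Without single arrays the Id1 difference ran from -0.20 (without duct replicate 2) to -0.43 (without duct replicate 1).

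Id2 (ENSMUSG00000020644) measured 8.25 and 8.07 in terminal end buds and 8.77 and 8.06 in ducts. The first duct array was high and the second was level with the terminal end buds, so the structures overlapped. The difference was -0.26 log2 units (95% interval -1.04 to 0.53), and it was 0.10 without duct replicate 1. After quantile normalization or median centring the Id2 arrays no longer overlapped, with differences of -0.46 and -0.37.

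**Figure D2:**
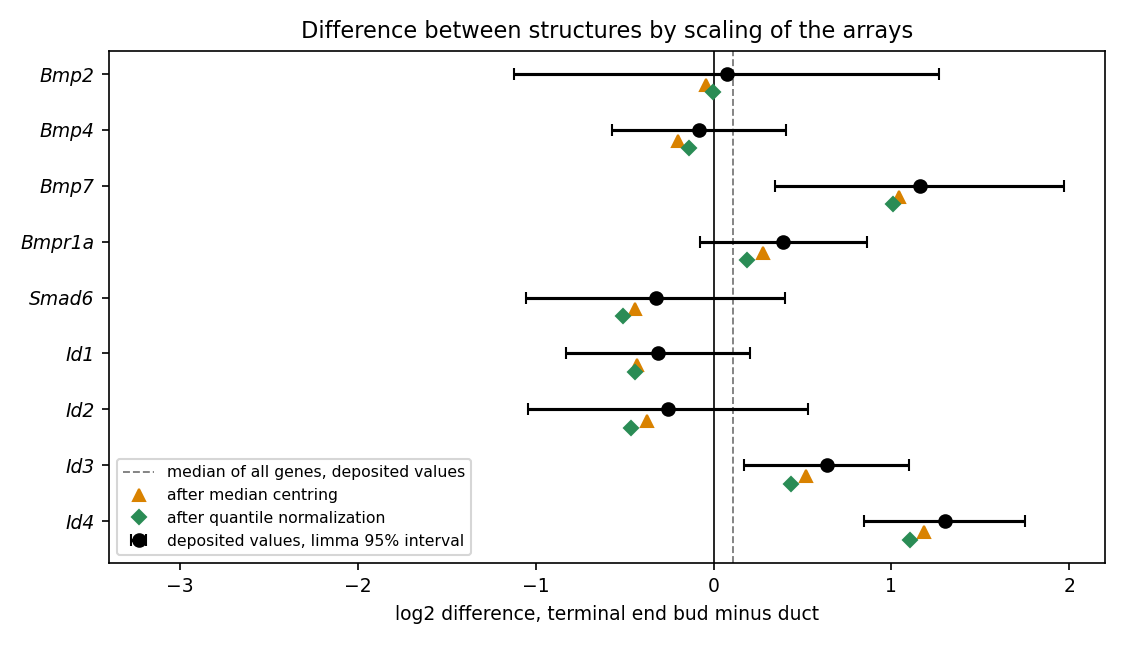
Log2 difference, terminal end bud minus duct (horizontal axis), for each measured gene. Black points are deposited values with limma's 95% interval, triangles and diamonds the same difference after median centring and quantile normalization, and the dashed line is the median of all genes at 0.11. The intervals, drawn for deposited values only, lie above 0 for Bmp7, Id3 and Id4, and both scalings move every gene to the left.

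Ratios between Id genes on one array are free of constant array offsets. The log2 ratio of Id4 to Id1 was 3.94 and 3.85 in terminal end buds and 2.40 and 2.16 in ducts, a change of 1.61 or 3.06-fold. The ratio of Id3 to Id1 was 2.44 and 2.36 in terminal end buds and 1.52 and 1.39 in ducts, a change of 0.95. Neither ratio overlapped between structures. This had to follow, since Id4 and Id3 lay higher without overlap and Id1 lower. The ratio of Id4 to Id3 also differed, with 1.50 and 1.48 against 0.89 and 0.77. The ratio of Id2 to Id1 overlapped, at 1.62 and 1.24 in terminal end buds and 1.85 and 0.90 in ducts. These ratios were chosen after the values were seen and are given without a test.

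**Figure D3:**
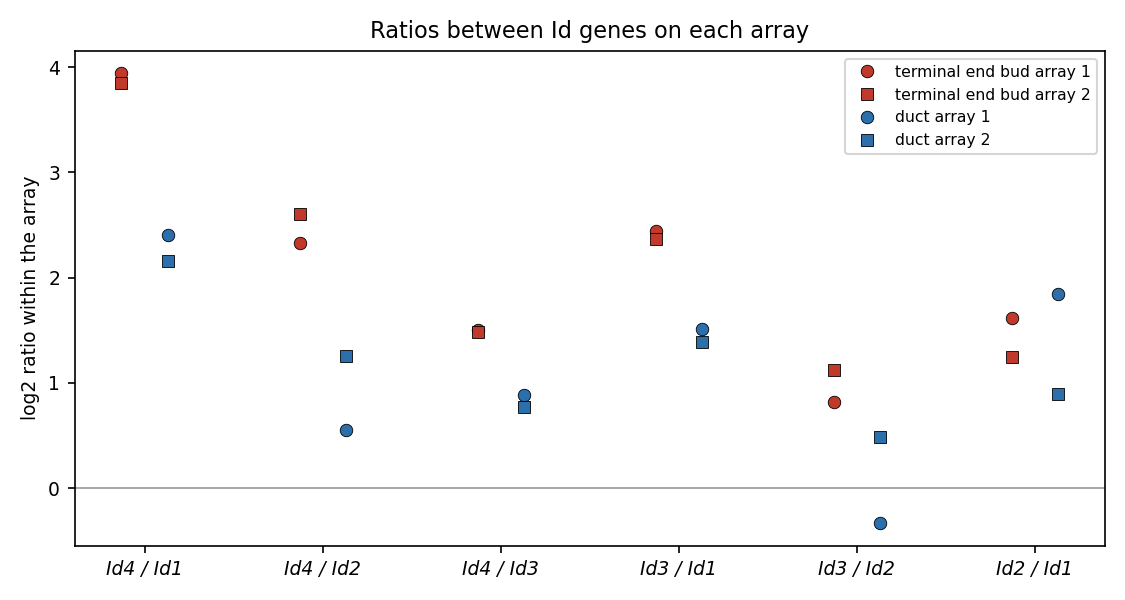
Log2 ratio of one Id gene to another within each array (vertical axis), with terminal end bud arrays in red and duct arrays in blue. The 5 ratios with Id4 or Id3 on top lie higher in terminal end buds without overlap, and Id2 over Id1 overlaps. The ratios reuse the values of the single genes, and no share over other gene pairs was computed. The height of a ratio depends on the probes and only its change between colours is read.

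A call required an adjusted p (Benjamini-Hochberg over 28399 genes) under 0.05 in limma's moderated test and a change of 1.5-fold or more. By that rule 0 of the 9 genes were called, as were 0% of all genes. The smallest adjusted p over all genes was 0.0657. Id4 had an adjusted p of 0.08 from limma, Bmp7 0.18, Id3 0.18, Bmpr1a 0.31 and Id1 0.43, and for Smad6, Id2, Bmp4 and Bmp2 it was 0.55 to 0.94. An unadjusted p under 0.05 was reached by 3 of the 9, all higher in terminal end buds, against 12.5% of all genes in that direction and 7.27% in the other. These were Id4 (0.00095), Bmp7 (0.015) and Id3 (0.018). When limma's prior variance followed brightness, Id4 (adjusted p = 0.0048) and Id3 (adjusted p = 0.046) passed as higher in terminal end buds, and 3.75% of all genes passed in that direction and 1.48% in the other. With that prior on quantile-normalized values Id4 passed (adjusted p = 0.0081) and Id3 did not (adjusted p = 0.14). Bmp7, with a similar fold to Id4 but wider spread, had an adjusted p of 0.068 with the brightness prior. For a single gene an exact permutation test of 2 against 2 arrays cannot go below p = 0.33 (two-sided).

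At least 2-fold apart without overlap were 2 of the 9 genes, Id4 and Bmp7, both higher in terminal end buds, and 4.43% of all genes lay that far apart in that direction. Bmp7 was under 2-fold without terminal end bud replicate 1 (0.93 log2 units) and without duct replicate 2 (0.85), while Id4 stayed between 1.25 and 1.35 without any single array. None of the 9 genes was at least 2-fold lower, against 2.63% of all genes.

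**Figure D4:**
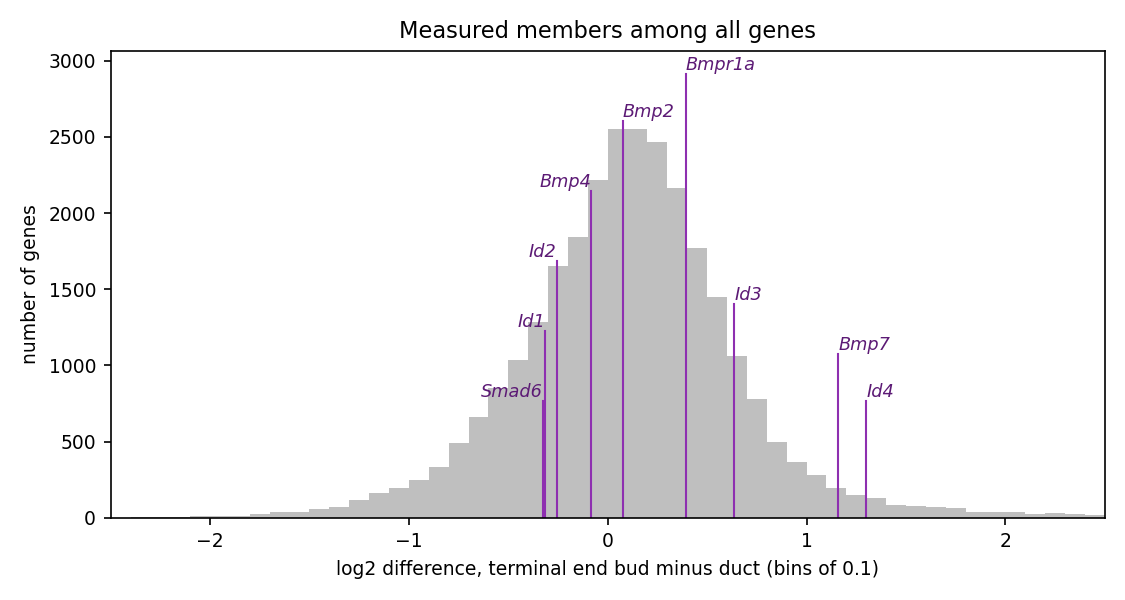
Number of genes (vertical axis) by log2 difference, terminal end bud minus duct, in bins of 0.1 (horizontal axis), with the measured genes marked by lines whose height has no meaning. Id4 at 1.30 and Bmp7 at 1.16 stand in the right flank, and Smad6, Id1, Id2, Bmp4, Bmp2 and Bmpr1a lie in the body of the distribution.

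If each value is a plain mean of log2 numbers with 5 decimals, the deposited decimals give the fewest numbers averaged for each gene. The sources used here do not state this. Values of Bmp2 and Smad6 have at most 5 decimals on all 4 arrays and so show no averaging, and those of Bmp7 equal means of at least 2 numbers. Values of Bmp4, Id1, Id3 and Id4 equal means of at least 3, those of Id2 of at least 4 and those of Bmpr1a of at least 8. The residual SD was 0.63 for Bmp2, 0.33 for Smad6 and 0.38 for Bmp7, against 0.05 to 0.15 for Bmp4, Id1, Id3, Id4 and Bmpr1a and 0.37 for Id2. The spread did not follow the averaging in order, since Id2 and Bmp7 had a larger residual SD than Smad6, and a relation between them was not tested. In pooled tissue, more cells that express a gene and more RNA per cell cannot be told apart. Markers of luminal, basal, stromal, immune and fat cells were not analysed here, because the reference tables used pair no Ensembl IDs with symbols, and their part in the Id4, Id3 and Bmp7 differences was not tested.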

How the data were processed

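Biotin-labelled cRNA from 1.5 microg of total RNA per sample was hybridised to 4 Affymetrix arrays, per the labels' protocols. The deposited values are log2 intensities from RMA, with genome build mm9, per the submitters' processing notes. Not given in the sources used here are RMA's version and settings, the annotation, and how one value per Ensembl ID was formed. RMA and the range of values showed the log2 scale. Arrays have no read depth, and their number limits precision.

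Samples were grouped by title. All 28399 IDs entered one fit in R 4.3.3 with limma 3.58.1 (lmFit, eBayes; no trend, filter or block), with Benjamini-Hochberg adjustment over all IDs. The fit had 2 residual degrees of freedom and a prior of 2.51. Alternatives were other scalings, variance priors, a brightness filter, a block for the replicate number and fits without single arrays. The fit was run on simulated independent normal values with known differences added, as a check of the code. The simulated variances came from the same fit, so this run cannot show error rates for these arrays. All 10 members were named by rule. Members and lists were chosen with earlier results of these data known. Lists of other BMP pathway genes and of cell type markers had been set by symbol and were not analysed here, since the reference tables (RefSeq, GRCm38.p6) pair 0 of the IDs with symbols; the 10 symbols come with the list of member IDs. Upstream sequences are from RefSeq, with coordinates of GRCm38.p6 and not of mm9.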

Additional observations from a re-analysis of the deposited data

How the results depend on the processing

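Id4, Id3, Bmp7, Bmpr1a, Id1 and Smad6 kept their direction under every alternative run. The variance priors, the brightness filter and the replicate block leave a difference unchanged by design. Leaving out a single array cannot turn a gene whose structures do not overlap. For Id4, Id3, Bmp7, Bmpr1a and Id1 only quantile normalization and median centring could thus have changed the sign. Bmp2 turned from 0.07 to -0.00069 after quantile normalization (with or without the brightness prior), to -0.040 after median centring (with or without it), to -0.23 without terminal end bud replicate 1 and to -0.48 without duct replicate 2. Without single arrays Bmp2 ranged from -0.48 to 0.62, Bmp4 from -0.20 to 0.034 (positive without duct replicate 2) and Id2 from -0.61 to 0.10 (positive without duct replicate 1). The count of called members moved from 0 to 2 with a prior variance that follows brightness, to 1 among genes above the median brightness, and to 1 with that prior after quantile normalization or after median centring, the last chosen after seeing the data. The count over all genes moved from 0 to 1485, 1426, 1466 and 1586 in the same order. Bmp2 and Bmp4 could not enter the brightness filter. Without single arrays the count of called members stayed at 0, where a lone array is assumed to vary like the other structure's, and the count of members at least 2-fold apart without overlap was 1 to 2. Same-numbered arrays deviated together with r = 0.086 across genes and no label pairs them. With the replicate block 0 members and 0 genes were called, and no call changed. Tests of the pathway list were not run. Signal over background is unknown without detection calls.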
